A study of Mus musculus with 12 samples.

Results

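Transcripts of the lung lining were followed in libraries of sorted T cells, where they serve as a measure of tissue RNA carried along with the cells. The members are 5 genes, Scgb1a1, Scgb3a2, Cbr2, Sftpc and Sftpa1, taken by symbol from the 24781 genes of the deposited table, and all 5 have a row there. The sorted cells were iNKT cells (invariant natural killer T cells, which recognise lipids presented by CD1d) of mice aged 6 weeks. Each of the 12 libraries was made from 100 cells, and all cells shared 4 sort criteria: TCRbeta, NK1.1, CXCR6 and binding of the CD1d tetramer. The sort was split by CD244 in each tissue, which gave 4 groups of 3 libraries: lung CD244-positive, lung CD244-negative, thymus CD244-positive and thymus CD244-negative. The labels used here give no strain, sex, allele or treatment that separates the groups. Replicates are described as independent library preparations and no animals are named, so p-values measure the spread between these libraries, which may be technical.

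Club cells of the airways secrete the secretoglobins, small proteins of the fluid that lines the bronchioles, and alveolar type 2 cells secrete the surfactant that keeps the air spaces open. Scgb1a1 encodes the main club cell secretory protein, Scgb3a2 a second secretoglobin, and Cbr2 a carbonyl reductase that is abundant in club cells and is also transcribed by some tissue-resident macrophages. Sftpc and Sftpa1 encode surfactant proteins C and A. T cells are not known to make the secretoglobins or the surfactant proteins. In libraries of bulk cells, more cells of a type and more RNA per cell cannot be told apart, and neither can a whole cell in the sort and free RNA around the sorted cells.

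In mm10 (GENCODE M21), Scgb1a1 lies on chromosome 19 from 9083636 to 9087958 and Cbr2 on chromosome 11 from 120729489 to 120732114, both on the minus strand. Both surfactant genes are on chromosome 14, Sftpc from 70520949 to 70524081 on the minus strand and Sftpa1 from 41131782 to 41136452 on the plus strand. All 5 are protein-coding, and each overlaps 0 other annotated genes. The coding sequence of Scgb1a1 is shown because this transcript was the most frequent member over the 6 lung libraries; it has 291 bases and 96 codons before the stop, it is read from the GENCODE M21 transcripts, and the capitals mark the start and the stop codon.
Scgb1a1: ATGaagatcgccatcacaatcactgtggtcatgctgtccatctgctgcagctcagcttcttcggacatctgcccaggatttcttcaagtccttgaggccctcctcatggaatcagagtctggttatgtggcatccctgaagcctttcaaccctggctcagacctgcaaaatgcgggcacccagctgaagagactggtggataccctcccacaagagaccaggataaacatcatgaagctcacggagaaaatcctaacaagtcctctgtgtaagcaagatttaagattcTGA

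The table held a signal that is a molecule count times 1 constant per library, and molecules were recovered by dividing by that constant. The lung CD244-positive libraries held 42520 to 51436 molecules and the lung CD244-negative libraries 29696 to 32196. The thymus CD244-positive libraries held 56615 to 71789 molecules and the thymus CD244-negative libraries 60120 to 67478. Cd3e, a chain of the T cell receptor complex, was found in all 12 libraries, at 7 to 11 molecules in lung and 19 to 29 in thymus. A level below is given as molecules, or as molecules per 10000 molecules of the library or of the pooled group, and no level is compared between genes per length since each molecule is counted once at its 3′ end. Intervals are exact (Clopper-Pearson) 95% intervals and, like the limit that a count of 0 allows (3 molecules over the group), cover counting error only.

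Lung libraries carried the 5 transcripts at a few molecules per 10000 and thymus libraries carried none. The pooled lung CD244-positive libraries held 46.25 member molecules of 142814, or 3.24 per 10000 (interval 2.36 to 4.30). The pooled lung CD244-negative libraries held 20.25 of 92037, or 2.20 per 10000 (interval 1.33 to 3.36). Thymus CD244-positive libraries held 0 of 191842 molecules, and the limit of 3 molecules allows up to 0.156 per 10000. Thymus CD244-negative libraries held 0 of 194464, which allows up to 0.154. The exact intervals used for the lung groups would end higher here, at 0.192 and 0.190. Folds over the limit would be smaller against those ends. The summed level of lung CD244-positive cells was 20.7 times the limit of thymus CD244-positive cells. That of lung CD244-negative cells was 14.3 times the limit of thymus CD244-negative cells. Such folds, here and below, take the lung level without its counting error, so they are not lower bounds. All 5 members had a molecule in some lung library and in 0 of 6 thymus libraries, a pattern shared by 13.8% of the 12206 genes with a molecule anywhere. The stricter pattern, with a molecule in each of the 6 lung libraries, was met by Scgb1a1 and Sftpc and by 0.0737% of those genes, 9 in all. The other 7 were Emb, Hspa1b, Jdp2, Gcnt2, Pdlim1, Mir221 and Snord11.

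**Figure D1:**
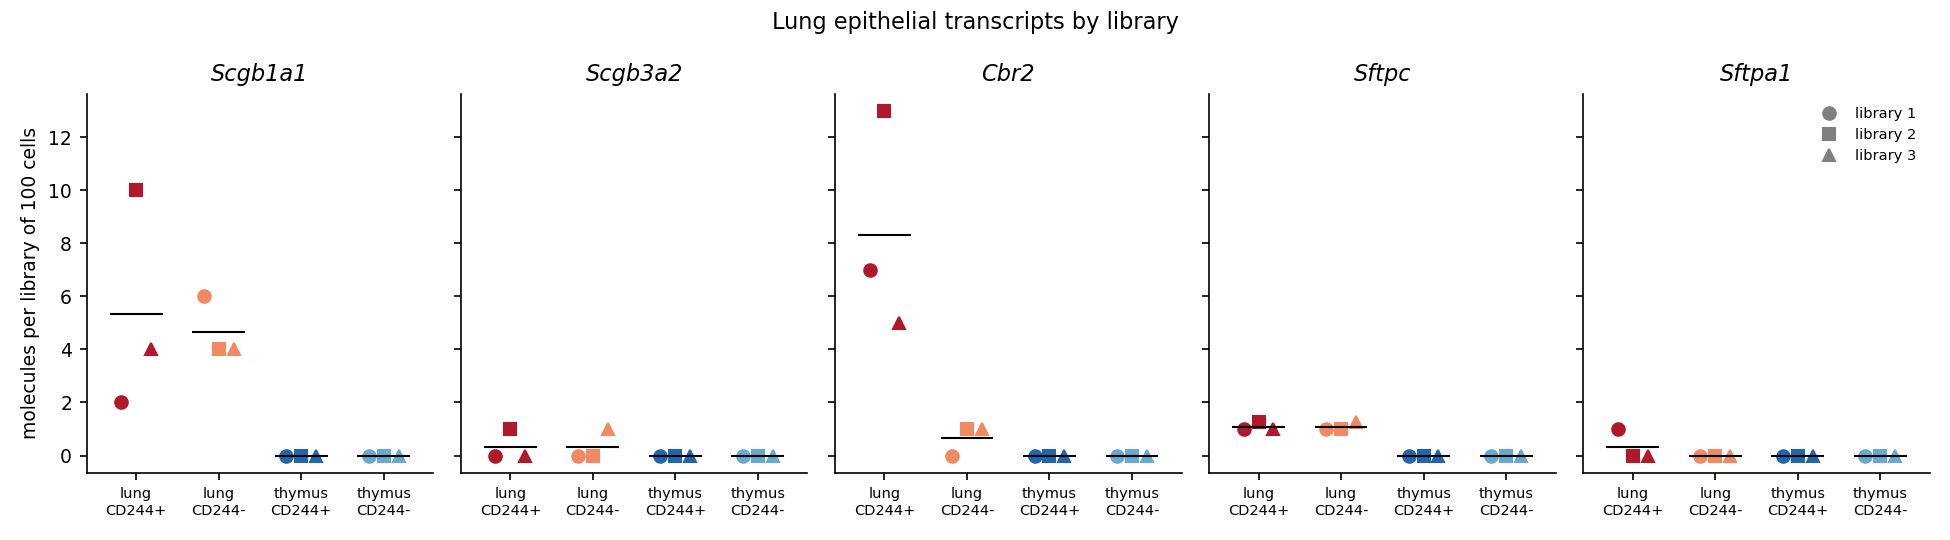
Molecules of each transcript (y axis) in each of the 12 libraries, by group along the x axis; the marker shape gives the library number and the black line is the group mean. Scgb1a1 and Sftpc lie above 0 in all 6 lung libraries, Cbr2 reaches 13 molecules in lung CD244-positive library 2, and all 5 transcripts are at 0 in the 6 thymus libraries.

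Scgb1a1 was present in every lung library. Libraries 1, 2 and 3 held 2, 10 and 4 molecules in lung CD244-positive cells and 6, 4 and 4 in lung CD244-negative cells, against 0 in every thymus library. The lung groups overlapped, and the second lung CD244-positive library was the highest of all. Pooled levels were 1.12 molecules per 10000 (interval 0.640 to 1.82) in lung CD244-positive cells and 1.52 (interval 0.832 to 2.55) in lung CD244-negative cells. Their ratio was 0.737 with an interval of 0.337 to 1.63, which covers equality. Counted per 100 sorted cells instead, the means stood in the other order, at 5.33 molecules in lung CD244-positive and 4.67 in lung CD244-negative libraries, since the CD244-negative libraries held fewer molecules in all. Against thymus of the same CD244 subset, the pooled level was 7.16 times the limit in lung CD244-positive cells. It was 9.86 times the limit in lung CD244-negative cells.

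Cbr2 was found mostly in lung CD244-positive libraries. Libraries 1, 2 and 3 held 7, 13 and 5 molecules in lung CD244-positive cells, against 0, 1 and 1 in lung CD244-negative cells. The groups did not overlap, which held in this direction for 7.75% of genes. The pooled level was 1.75 molecules per 10000 (interval 1.13 to 2.58) in lung CD244-positive cells and 0.217 (interval 0.0263 to 0.785) in lung CD244-negative cells, a ratio of 8.06 with an interval of 2.01 to 70.2. Cbr2 made up 54.1% of the member molecules in lung CD244-positive cells and 9.88% in lung CD244-negative cells, and Scgb1a1 made up 34.6% and 69.1% in the same groups. Cbr2 had 0 molecules in all 6 thymus libraries, and its level in lung CD244-positive cells was 11.2 times the limit of thymus CD244-positive cells.

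The second secretoglobin, Scgb3a2 (chromosome 18, 43764289 to 43767399, plus strand), was near the limit of detection. It had 1 molecule, in library 2, in lung CD244-positive cells and 1 molecule, in library 3, in lung CD244-negative cells. No difference between the lung groups was detectable at this depth, since the ratio of 0.644 had an interval of 0.00821 to 50.6.

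The surfactant transcripts were fewer than the airway transcripts in both lung groups. Sftpc had 1, 1.25 and 1 molecules in lung CD244-positive libraries 1, 2 and 3, and 1, 1 and 1.25 in lung CD244-negative libraries. A value of 1.25 is what the table gives; it was 1 of 2 fractional values among 20 nonzero member values. Because the lung CD244-negative libraries held fewer molecules, the same counts gave 0.228 molecules per 10000 in lung CD244-positive cells and 0.353 in lung CD244-negative cells. On that scale the groups did not overlap, as for 5.02% of genes in this direction, but the ratio of 0.644 had an interval of 0.0863 to 4.81. Over both lung groups the pooled level of Sftpc was 3.56 times the limit of the pooled thymus libraries. Sftpa1 had 1 molecule, in lung CD244-positive library 1, and 0 in the other 11 libraries. Airway members, Cbr2 included, summed to 2.94 molecules per 10000 in lung CD244-positive cells and 1.85 in lung CD244-negative cells. The surfactant members summed to 0.298 and 0.353 in the same groups. The secretoglobins alone, without Cbr2, stood in the other order than the airway sum, at 1.19 and 1.63.

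**Figure D2:**
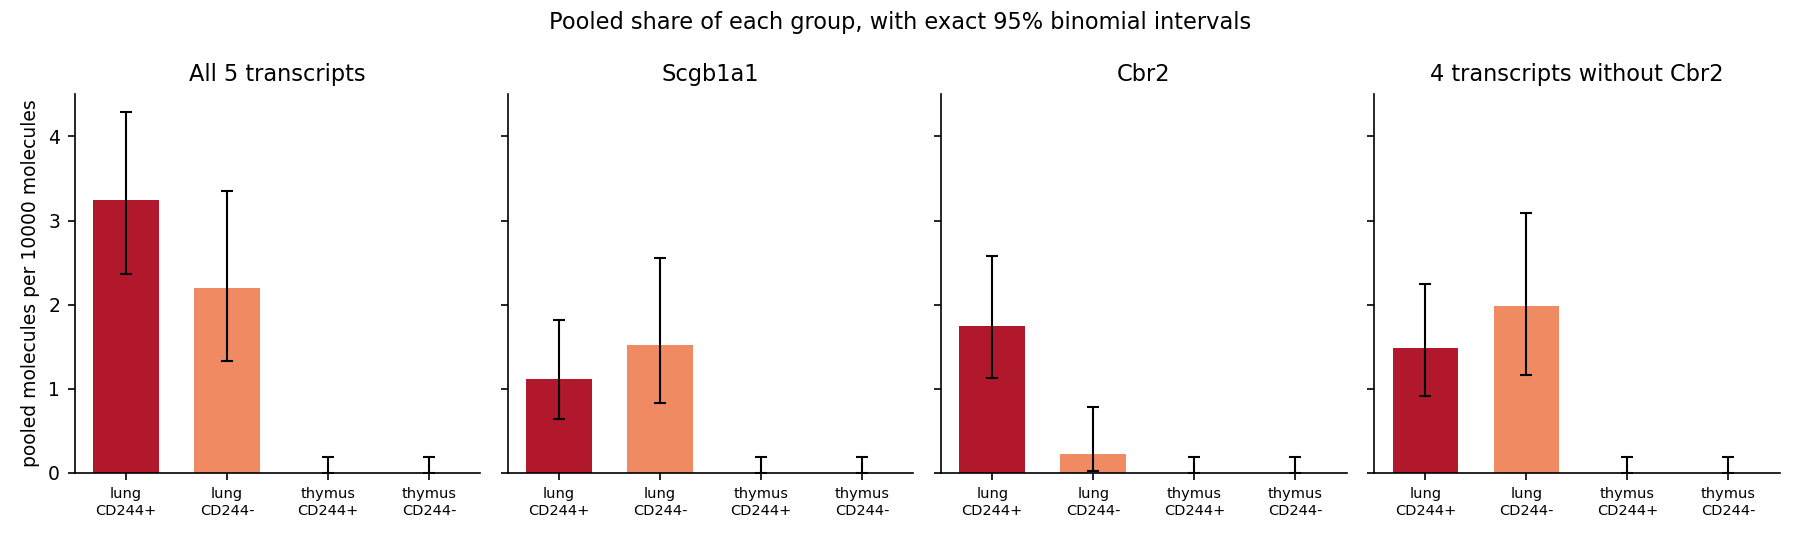
Pooled molecules per 10000 (y axis) in the 4 groups for all 5 transcripts, for Scgb1a1, for Cbr2 and for the 4 transcripts other than Cbr2; bars are pooled levels of 3 libraries and error bars are exact 95% binomial intervals. Lung CD244-positive cells are higher than lung CD244-negative cells in the sum of 5 (3.24 against 2.20) and lower in the sum without Cbr2 (1.49 against 1.98).

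By library the sum of the 5 transcripts was 2.25, 5.94 and 1.94 molecules per 10000 in lung CD244-positive cells and 2.36, 1.99 and 2.25 in lung CD244-negative cells, and the groups overlapped. The pooled ratio was 1.47, with an interval of 0.859 to 2.65. Without Cbr2 the pooled levels were 1.49 molecules per 10000 in lung CD244-positive cells and 1.98 in lung CD244-negative cells, a ratio of 0.750 with an interval of 0.381 to 1.497 that covers equality. Per 100 sorted cells the order without Cbr2 was the other, at 7.08 molecules in lung CD244-positive and 6.08 in lung CD244-negative cells. Without lung CD244-positive library 2, which held the most Scgb1a1 and the most Cbr2, the sum was 2.09 in lung CD244-positive cells, under the 2.20 of lung CD244-negative cells.

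A fit across all genes (limma on log2(value + 1), 5138 genes over 1 unit in at least 3 libraries, Benjamini-Hochberg adjustment) held 2 of the 5 members, Scgb1a1 and Cbr2. Scgb1a1 passed the filter only through lung libraries and Cbr2 only through lung CD244-positive libraries. Their calls, counts of calls and adjusted p-values in this fit are therefore no support for a difference by themselves. Beside the fit, levels did not overlap and were higher in lung for 3 members in CD244-positive cells (Scgb1a1, Cbr2 and Sftpc), as for 9.77% of genes, and for 2 members in CD244-negative cells (Scgb1a1 and Sftpc), as for 5.46% of genes. Fitted folds against a group at 0 depend on the added 1 and are not bounds. Scgb3a2, Sftpc and Sftpa1 were too low for the filter.

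Between the lung groups the question is whether the levels of the members differed with CD244, whatever their source. The fit called 1 of 2 tested members higher in lung CD244-positive cells, where 8.43% of all tested genes were called and 5.61% were higher. Cbr2 rose by 1.61 ± 0.39 (SE) log2 units in lung CD244-positive cells (limma adjusted p = 0.00215), and without any filter, over 12206 genes, its adjusted p was 0.00140. Scgb1a1 had a fitted difference of -0.42 ± 0.40 (SE) log2 units (adjusted p = 0.623). In thymus neither had a difference to test, since both were at 0 in all 6 libraries, and 0.409% of tested genes were called there. The difference between the tissues in the CD244 effect did not pass the threshold for Cbr2 (1.61 ± 0.56 (SE) log2 units, adjusted p = 0.1004) or for Scgb1a1 (-0.42 ± 0.56 (SE), adjusted p = 0.826), where 3.27% of genes passed.

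Lung was set against thymus within each CD244 subset. In CD244-positive cells both tested members were called higher in lung, where 14.9% of tested genes were called and 5.27% were higher. Cbr2 rose by 2.08 ± 0.39 (SE) log2 units (limma adjusted p = 1.96e-05) and Scgb1a1 by 1.55 ± 0.40 (SE) log2 units (adjusted p = 0.00256). Both passed the filter only through lung libraries and were at 0 in thymus, so these p-values are no support by themselves. Without any filter, over 12206 genes, the limma adjusted p was 3.60e-06 for Cbr2 and 0.00365 for Scgb1a1. Scgb1a1 lost its call without lung CD244-positive library 2 (1.08 log2 units, adjusted p = 0.0940). In CD244-negative cells 1 of 2 was called, where 10.7% of tested genes were called and 2.18% were higher. There Scgb1a1 rose by 1.97 ± 0.40 (SE) log2 units in lung (limma adjusted p = 0.000124), and Cbr2 had a difference of 0.46 ± 0.39 (SE) log2 units (adjusted p = 0.498). Without any filter the limma adjusted p was 0.000109 for Scgb1a1 and 0.602 for Cbr2. The median of all tested genes was itself shifted by -0.27 log2 units in CD244-positive and -0.29 in CD244-negative cells, because the lung columns sum to less than the thymus columns. Over all genes 271 were called higher and 494 lower in lung for CD244-positive cells, and 112 and 438 for CD244-negative cells. With all columns set to a common total the splits were 352 and 204 for CD244-positive cells and 160 and 151 for CD244-negative cells, and no call of Scgb1a1 or Cbr2 changed.

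Members below the filter were covered by an exact permutation test of 6 lung against 6 thymus libraries, two-sided, on molecules per 10000. Scgb1a1 was higher in lung by 1.35 molecules per 10000 and Sftpc by 0.292, each in 6 of 6 lung libraries and each with the smallest p this exact test can give, 0.00216. Cbr2 was higher by 1.02 (exact permutation p = 0.0152), present in 5 of 6 lung libraries. Scgb3a2 was higher by 0.0910 (exact permutation p = 0.455) and Sftpa1 by 0.0341 (exact permutation p = 1). After adjustment over 12206 genes the values were 0.0971 for Scgb1a1 and Sftpc and 0.272 for Cbr2, and 0 genes of the table passed, since genes at the smallest p also had an adjusted value of 0.0971. The smallest p was reached, with lung higher, by 0.959% of genes. The main test moved labels across CD244 subsets and ignored replicate numbers. Permuting only within each CD244 subset gave exact permutation p = 0.005 for Scgb1a1 and Sftpc and 0.02 for Cbr2. Sign flips within 6 same-numbered pairs gave exact permutation p = 0.03125 for Scgb1a1 and Sftpc and 0.0625 for Cbr2. Adjusted values for Scgb1a1 and Sftpc were 0.159 within subsets and 0.572 with sign flips.

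Further epithelial genes were sparse beside the members. Of 17 other club and secretory cell genes, 3 had a molecule in lung CD244-positive cells and 5 in lung CD244-negative cells. Cyp2f2, a cytochrome P450 of club cells, had 0, 3 and 0 molecules in lung CD244-positive libraries 1, 2 and 3 and 2, 1 and 0 in lung CD244-negative libraries, against 0 in thymus. The summed list was 0.706 to 12.6 molecules per 10000 in lung CD244-positive libraries, against 0.311 to 1.35 in lung CD244-negative libraries, and 93 of its 97 molecules in lung CD244-positive cells were Retnla. Retnla, which macrophages also transcribe, had 29, 0 and 64 molecules in lung CD244-positive libraries 1, 2 and 3, so it had 0 molecules in the library with the most Scgb1a1 and Cbr2.

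Of 18 other alveolar type 2 genes, 10 had a molecule in lung CD244-positive cells and 3 in lung CD244-negative cells. Sftpb, another surfactant protein, had 1 molecule in each lung CD244-positive library and 2, 0 and 0 in lung CD244-negative libraries 1, 2 and 3. Abca3, the lipid transporter of surfactant bodies, had 2, 0 and 0 molecules in lung CD244-positive libraries and 1, 0 and 1 in lung CD244-negative libraries. Most of the list's 75.5 molecules in lung CD244-positive cells were Lyz1 (28.5), Ctsh (19) and Fabp5 (10), which macrophages also transcribe; Lyz1 and Ctsh had 0 molecules in lung CD244-negative cells.

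The general epithelial list was also found in thymus libraries, but 37 of its 39 molecules there were Cdh1 (E-cadherin). The 14 general epithelial genes summed to 0.205 to 0.778 molecules per 10000 in lung CD244-positive libraries and 0 to 0.673 in lung CD244-negative ones, against 0.975 to 1.94 and 0.148 to 1.20 in the CD244-positive and CD244-negative libraries of the thymus. Cdh1 (E-cadherin) made up 27 of 28 of these molecules in thymus CD244-positive cells. Epcam, an adhesion molecule of epithelia, had 3 molecules in lung CD244-positive cells and 1 in lung CD244-negative cells, against 1 among thymus CD244-positive cells and 0 among thymus CD244-negative cells. The type 1 cell markers Ager, Aqp5 and Cldn18, the lung epithelial factor Nkx2-1 and the keratin Krt19 were at 0 in all 12 libraries. Hopx, which is listed with the type 1 genes, had 18 of the 28 molecules of that list in lung CD244-positive and 15 of 16 in lung CD244-negative cells, against 49 of 49 among thymus CD244-positive and 21 of 22 among thymus CD244-negative cells; Vegfa had 9 of the others in lung CD244-positive cells. The 12 thymic epithelial genes summed to 20.29 molecules in lung CD244-positive and 5 in lung CD244-negative cells, against 8 among thymus CD244-positive and 9.5 among thymus CD244-negative cells. Most were Ctsl, a protease that other cells also make, with 22 molecules in lung and 14.5 in thymus. Thymus libraries also held 2 molecules of Ly75 and 1 of Aire, and Psmb11, Foxn1, Krt5 and Krt14 were at 0 in all 12 libraries. Ciliated cell genes had 11 molecules in lung CD244-positive and 0 in lung CD244-negative cells, 9 of them Tppp3.

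**Figure D3:**
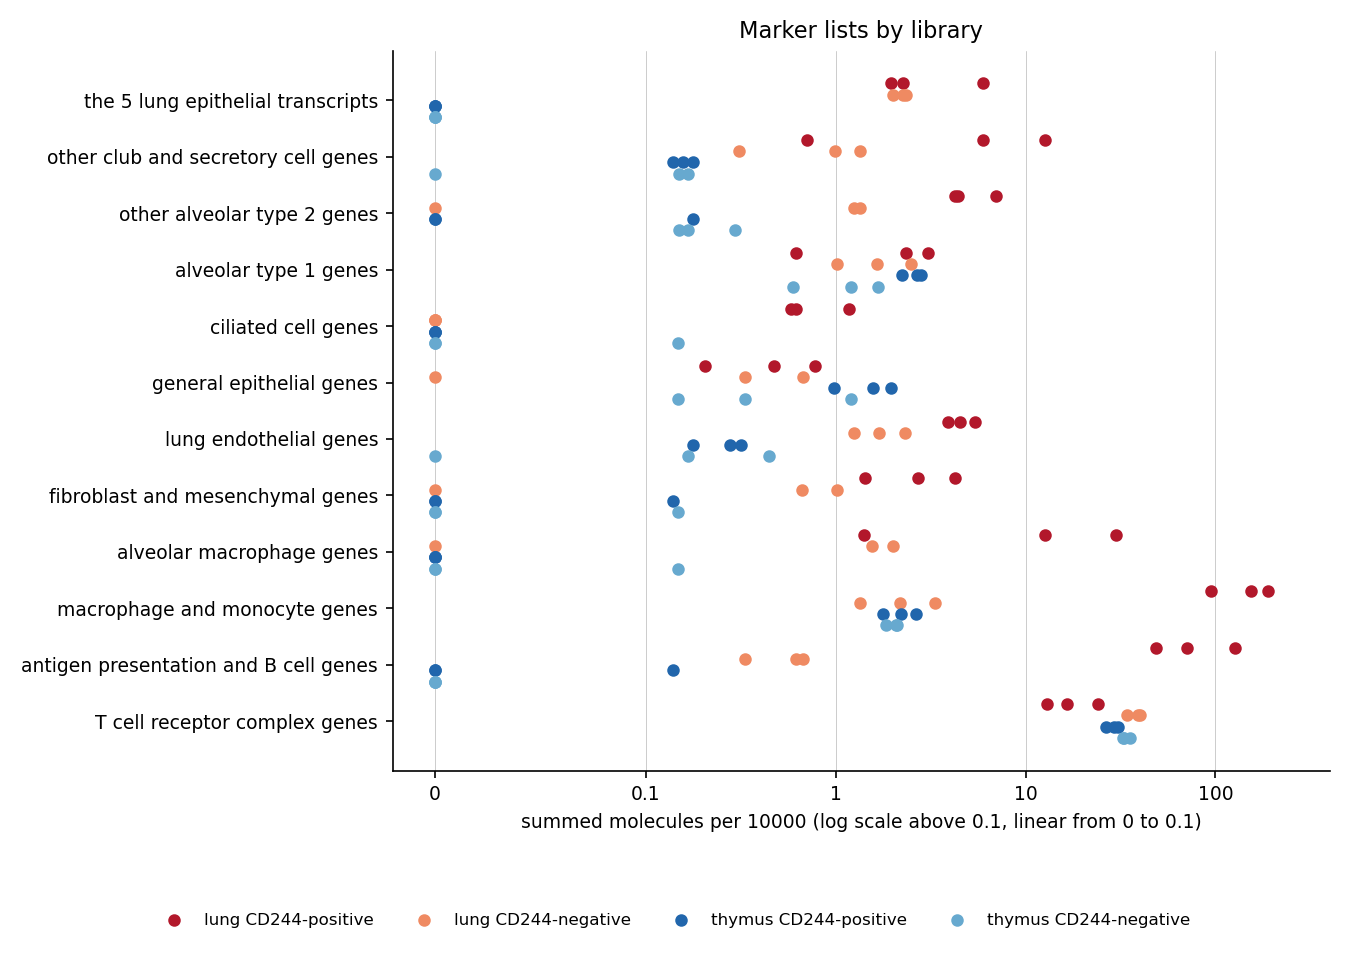
Summed molecules per 10000 (x axis, logarithmic above 0.1 and linear from 0 to 0.1) of the 5 transcripts and of 11 marker lists; each point is 1 library, coloured by group. The 5 transcripts sit at 1.94 to 5.94 in lung libraries and at 0 in thymus libraries, and macrophage and monocyte genes at 95.2 to 189 in lung CD244-positive libraries and at 1.35 to 3.32 in lung CD244-negative libraries.

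Macrophage transcripts were measured beside the members, and their levels did not overlap between the lung groups. All 18 macrophage and monocyte genes had a molecule in lung CD244-positive cells and 5 had one in lung CD244-negative cells. Their sum ranged over 95.2 to 189 molecules per 10000 in lung CD244-positive libraries, against 1.35 to 3.32 in lung CD244-negative libraries. In thymus it was 1.77 to 2.65 with CD244 and 1.83 to 2.09 without. Lung CD244-positive library 2 held the highest sum of this list, the most Cbr2 and the most Scgb1a1. Genes of antigen presentation and B cells summed to 48.9 to 126 molecules per 10000 in lung CD244-positive libraries, against 0.332 to 0.673 in lung CD244-negative libraries. T cell receptor complex genes stood in the other order, at 12.9 to 24.2 in lung CD244-positive libraries, against 34.3 to 40.0 in lung CD244-negative libraries. In lung CD244-negative cells 13 of the 18 macrophage and monocyte genes were at 0 and the other 5 held 21 molecules: 10 of Cst3, 7 of Selenop, 2 of Ctss, 1 of Csf1r and 1 of Tyrobp. The alveolar macrophage genes held 11 molecules there, 3 of them Chil3. The part of macrophage RNA in the results for Cbr2 and Scgb1a1 was not tested.

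**Figure D4:**
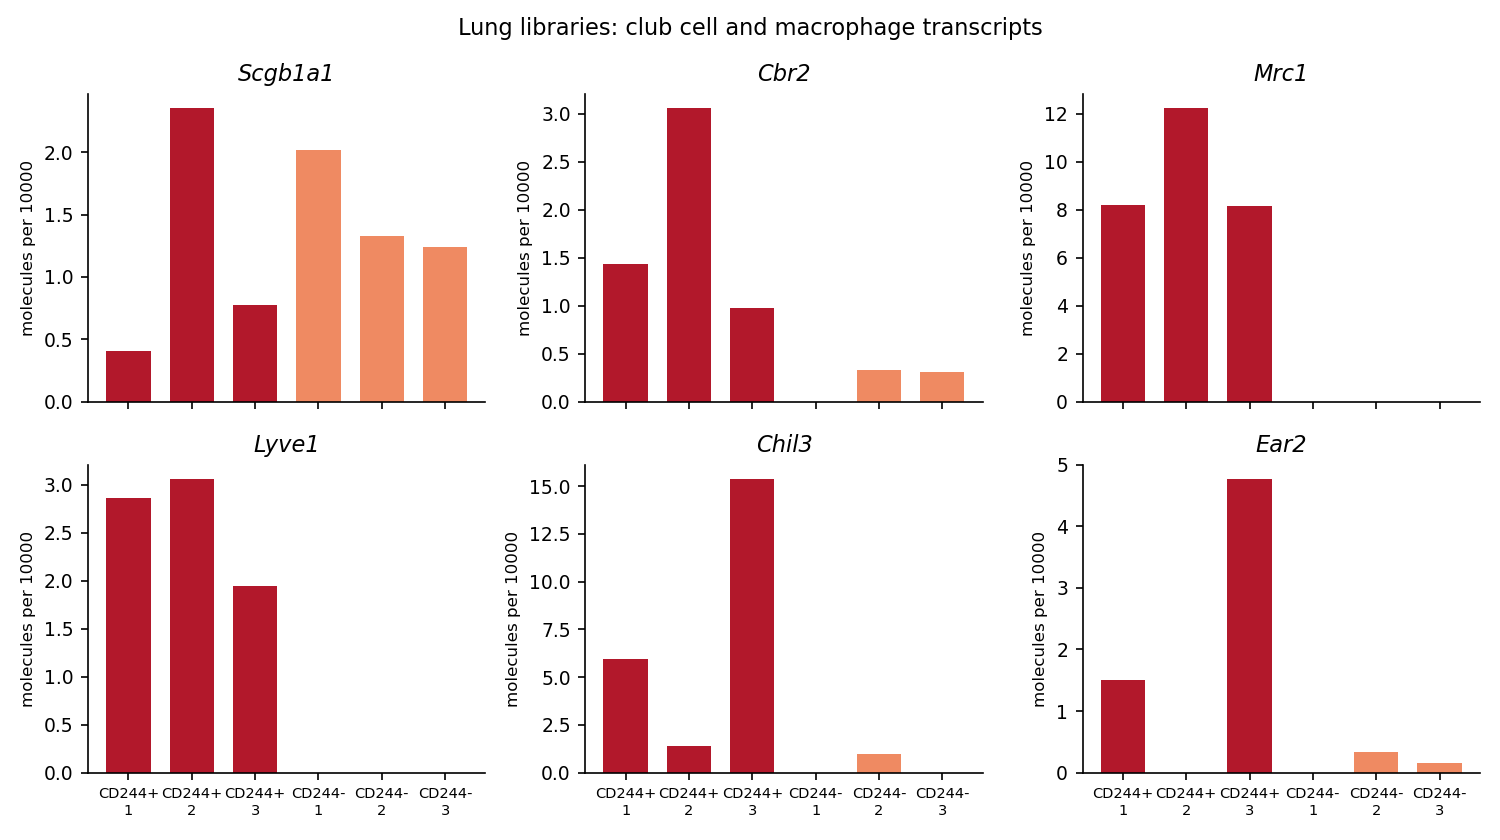
Molecules per 10000 (y axis, a separate scale from 0 in each panel) of Scgb1a1, Cbr2 and 4 macrophage-associated transcripts in the 6 lung libraries, with CD244-positive libraries 1 to 3 left of CD244-negative libraries 1 to 3. Cbr2, Mrc1 and Lyve1 are highest in CD244-positive library 2 and at or near 0 in CD244-negative libraries, Chil3 and Ear2 are highest in CD244-positive library 3, and Scgb1a1 is present in all 6.

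Within lung CD244-positive cells the macrophage genes did not share 1 order over the libraries. Mrc1, the mannose receptor of resident macrophages, had 40, 52 and 42 molecules in libraries 1, 2 and 3, and 0 in each lung CD244-negative library. Lyve1, a hyaluronan receptor of lymphatic vessels and some resident macrophages, had 14, 13 and 10 molecules in lung CD244-positive libraries and 0 in lung CD244-negative libraries. Chil3 and Ear2, which alveolar macrophages transcribe, were lowest in library 2, where Cbr2 was highest. Chil3 had 29, 6 and 79 molecules in lung CD244-positive libraries, against 0, 3 and 0 in lung CD244-negative libraries. Ear2 had 7.33, 0 and 24.5 molecules in lung CD244-positive libraries, against 0, 1 and 0.5 in lung CD244-negative libraries. With 3 libraries these orders are a description.

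The genes whose pattern over the 12 libraries was most like the sum of the 5 transcripts were in none of the marker lists. Among 5136 genes the highest Pearson correlations of log2 levels were those of Tgif1 (0.949), Fosl2 (0.941), Coq10b (0.938), Tnfaip3 (0.932), Junb (0.932), Pdlim1 (0.931), Ets2 (0.930) and Nr4a3 (0.928). All 6 thymus libraries are at 0 for the sum, so these values are set largely by the difference between tissues and carry no test. For Cbr2 alone, a list drawn up after its values were seen, the highest were Lilrb4a (0.997) and Cxcl16 (0.961), with 22 and 14 molecules in lung CD244-positive cells and 2 and 0 in lung CD244-negative cells. Pf4, a macrophage and platelet chemokine, was also among the first 8 for Cbr2 (0.955).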

How the data were processed

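RNA was measured in 12 libraries of 100 sorted cells, with molecular barcodes in the oligo-dT primer, template switching and PCR, per the labels' protocols. Reads were mapped with STAR to mm10, per the submitters' processing notes; the counting step, annotation and scaling formula are not given in the sources used here. The authors deposited 1 table holding a signal per gene and library, in which each value equals molecules times a factor that is fixed within a library. Dividing by the most frequent nonzero value gave whole molecules for 94.3% to 95.9% of nonzero values (tolerance 1e-06); 3 libraries have a smallest value under 1 molecule, which leaves their steps unchecked. Thymus columns sum to 26890.5 units and lung columns to 19342.9. No 2 libraries were identical.

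The 5 members and all marker lists were chosen with earlier results of these data known. Groups came from the labels. Pooled shares and ratios have exact binomial intervals computed with scipy 1.17.1. The shares and ratios keep fractional molecules, and the intervals use sums rounded to whole molecules. One limma 3.58.1 fit (trend and robust, R 4.3.3) of log2(value + 1) with 4 groups used genes over 1 unit in at least 3 libraries, two-sided p-values and a Benjamini-Hochberg threshold of 0.05 over all 5138 genes. The sum of the members was given no p. The fit and the permutation test were tried on simulated data. Named were the members, up to 4 genes per list with the most molecules (not all printed), and the 8 genes most like the summed members; Abca3, Sftpb, Mrc1, Ctss, Csf1r, Tyrobp, Cd3e, Lilrb4a, Cxcl16, Pf4 and markers at 0 were named after their values were seen. Positions and the coding sequence are from GENCODE M21 (GRCm38, the assembly that mm10 names). edgeR 4.0.16 (quasi-likelihood, TMM, filterByExpr) was run on rounded recovered molecules of 9 libraries as an alternative chosen after seeing the data.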

Additional observations from a re-analysis of the deposited data

How the results depend on the processing

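Of 423 values recomputed, 416 were held to be unchanged, by a rule for each kind of value. Some of these could not change, since the members had 0 molecules in thymus. For CD244 in thymus these were 20 counts of called members, 9 sums, 20 values of Scgb1a1 and 20 of Cbr2. The total is therefore no measure of how firm the results are. Counts of called members had to stay within a fixed ratio. Summed levels had to keep their direction and stay within the standard deviation between libraries. Single genes had to stay on their side of the threshold, with no reversal of a called difference. The higher level of Cbr2 in lung CD244-positive than in lung CD244-negative cells was called under all 20 alternatives that gave a value, with limma adjusted p from 5.41e-05 to 0.0410. The alternatives refit the same libraries, and Cbr2 passed the main filter only through lung CD244-positive libraries. These repeated calls are therefore no independent support. Over the libraries left out in turn, 1 to 2 members were called for lung against thymus in CD244-positive cells, and the number fell to 1, Cbr2, without lung CD244-positive replicate 2. A pseudocount of 5 raised the members called for the difference between tissues to 1, Cbr2 (0.63 log2 units, limma adjusted p = 0.0180; 0.0180 to 0.292 over the alternatives). The summed members in lung CD244-positive minus lung CD244-negative cells came to 1.04 molecules per 10000, to -0.49 without Cbr2 (chosen after seeing the data), and to between -0.11 and 1.77 over the libraries left out, the lowest without lung CD244-positive replicate 2. In lung minus thymus CD244-negative cells the sum was 2.20, and 1.98 without Cbr2. With a replicate block the members called were 1 between the lung groups, 0 in thymus, 2 and 1 for lung against thymus with and without CD244, and 0 for the difference between tissues, and Cbr2 kept 1.61 log2 units between the lung groups (limma adjusted p = 0.00239); the block changed no call of a member. The labels name no animals, so whether same-numbered libraries share one is unknown. Their deviations correlated at -0.016 to 0.014, which cannot settle this, since counting noise alone can keep such values near 0. A filter of over 5 units in at least 3 libraries, which kept 922 genes, and edgeR on 9 libraries, which kept 1165, tested 0 members and give no value for them; that fit called 127 genes higher and 45 lower in lung CD244-positive than in lung CD244-negative cells, 12 and 0 in thymus, 178 and 113 for lung against thymus in CD244-positive cells, 106 and 109 in CD244-negative cells, and 16 and 6 for the difference between tissues. Depth limits Scgb3a2, Sftpc and Sftpa1 most, at 1 to 3.25 molecules per lung group where detected.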
